A study of Mus musculus with 30 samples.

Results

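The transcription factors described here are 9 genes that the circadian clock switches on and off each day: Dbp, Tef, Hlf, Nfil3, Nr1d1, Nr1d2, Ciart, Bhlhe40 and Bhlhe41. They were chosen by gene symbol and not by signal, though with earlier results of these data known. Each was matched to 1 probe set, so that they make up 9 of the 22206 probe sets tested, of which 19572 carried a single gene symbol. The Ror receptors are not among the 9 and were counted with the core clock.

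Liver RNA was measured in C57/BL6J mice of both sexes at 16 weeks of age, with 1 Clariom S array per animal. Their mothers had been superovulated in every group, inseminated artificially with sperm of 1 male and then housed with a vasectomised male, which supplied the seminal plasma. Each of these males ate a normal or a low protein diet, and mothers and offspring of every group ate standard chow. The first letter of a group gives the diet of the sperm donor and the second that of the seminal plasma donor. NN offspring (normal and normal) had 3 female and 4 male arrays and were the controls. LL offspring (low and low) had 5 female and 4 male arrays. NL offspring (normal, low) and LN offspring (low, normal) had 3 female and 4 male arrays each. Litters are not in the labels, and some males and females within a group may be littermates, so that the tests measure the spread between these animals. The time of day at which the animals were culled and when they last ate are not given in the sources used here.

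In the liver clock, the proteins CLOCK and BMAL1 (gene Arntl) switch on their own repressors, the Per and Cry genes, through a DNA motif called the E-box. The same motif drives many of the output factors. Dbp, Tef and Hlf belong to the PAR bZip family and activate genes that carry a D-box, among them genes of drug and haem metabolism, whereas Nfil3 (E4BP4) represses through the same D-box at the opposite time of day. Nr1d1 and Nr1d2 encode REV-ERB alpha and beta, which repress Arntl, Npas2 and Nfil3 through another motif, the RORE. Ciart (CHRONO) and the Dec factors Bhlhe40 and Bhlhe41 repress transcription by CLOCK and BMAL1.

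RefSeq promoter windows of 300 bases (GRCm38.p6, 250 bases before to 50 after a start site) were at hand for 8 of the 9 genes, with 2 start sites for Tef, and Bhlhe40 had none. Both strands were searched for the E-box CACGTG, the related E′-box CACGTT, the D-box TTANGTAA and the RORE. An E-box was found for 3 of these 8 genes, against 7.15% of 32851 windows of all genes, and an E′-box for 1, against 4.68%. The counts are per gene, over 9 windows, and the shares are per window. No D-box (2.32% of all windows) or RORE (0.384%) was found in a window of the 9 genes. The windows of Dbp, Hlf, Nfil3 and Nr1d2 held none of the 4 motifs, which says only that these letters are not in those 300 bases. The stretches around the motifs are printed 5′ to 3′ on the strand of the gene, because the E-box is the motif through which CLOCK and BMAL1 are known to act. Capitals mark the E-box, or in Nr1d1 the E′-box read on the other strand. The Ciart window held 3 E-boxes, in the stretch at chr3:95882255-95882356 (minus strand). The Tef stretches lie at chr15:81802524-81802573 and chr15:81811254-81811303 (plus strand), that of Bhlhe41 at chr6:145865546-145865595 (minus strand) and that of Nr1d1 at chr11:98775384-98775421 (minus strand).
Ciart: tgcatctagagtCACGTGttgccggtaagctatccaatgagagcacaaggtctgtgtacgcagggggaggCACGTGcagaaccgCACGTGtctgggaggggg
Tef, first start: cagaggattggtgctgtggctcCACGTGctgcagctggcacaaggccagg
Tef, second start: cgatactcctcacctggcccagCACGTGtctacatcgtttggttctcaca
Bhlhe41: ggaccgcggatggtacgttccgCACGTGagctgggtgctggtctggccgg
Nr1d1: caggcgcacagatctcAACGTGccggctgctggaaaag

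For comparison, a target of each arm was searched in the same way. The window of Per3, a period gene of the core clock, held 2 D-boxes (capitals, chr4:151044804-151044882, minus strand), and 1 of the 2 windows of Arntl held a RORE (capitals, chr7:113207528-113207556, plus strand). A match is a description of the sequence and not evidence that a factor binds there.
Per3: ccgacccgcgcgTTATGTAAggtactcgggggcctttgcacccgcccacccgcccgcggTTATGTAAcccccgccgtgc
Arntl: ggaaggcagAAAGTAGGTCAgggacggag

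Values are log2 signals as normalized by the authors, and signals of different genes are not compared, since probe sets differ in brightness. NL replicate 6 was left out, which leaves 29 arrays: its hybridisation controls averaged 8.42 against 10.67 to 11.41 on the other 29 arrays. The array labelled LL replicate 1, a female, had a mean of 5.22 over 3 Y-linked genes, between the 2.38 to 3.00 of the other 13 females and the 6.40 to 7.36 of 15 males. Hepatocyte markers (Alb, Apoa1, Ttr, Serpina1a and Apob) averaged 13.17 to 13.28 on every array. In bulk liver, for the factors as for the markers, fewer cells of a type and less RNA per cell cannot be told apart. The number of arrays limits the precision.

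Most of the 9 factors differed far more between animals of the same group than a typical gene did. The residual SD of Dbp, the PAR bZip activator with the widest daily swing in mouse liver, around the group means was 1.73 on the log2 scale, rank 30 of 22206. Its signal ran from 6.87 to 12.22, a 40.6-fold range. Of the 9 factors, 8 lay above the 95th percentile of residual SD and 6 above the 99th, and their median was 0.89 against 0.25 over all probe sets. Hlf was the exception, at the 51.2nd percentile with a 2.00-fold range. The fold ranges of the others were 13.9 for Nr1d1, 12.9 for Ciart, 7.59 for Nfil3, 6.18 for Nr1d2, 3.82 for Tef and 3.61 for Bhlhe40. For Bhlhe41 no fold range is given, since its lowest signal, 2.78, lay within the 2.38 to 3.00 of Y-linked genes on female arrays. The lowest Ciart signal, 3.85, lay within the 3.28 to 4.12 of the lymphocyte marker Ms4a1, so that low Ciart values may include background signal.

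**Figure D1:**
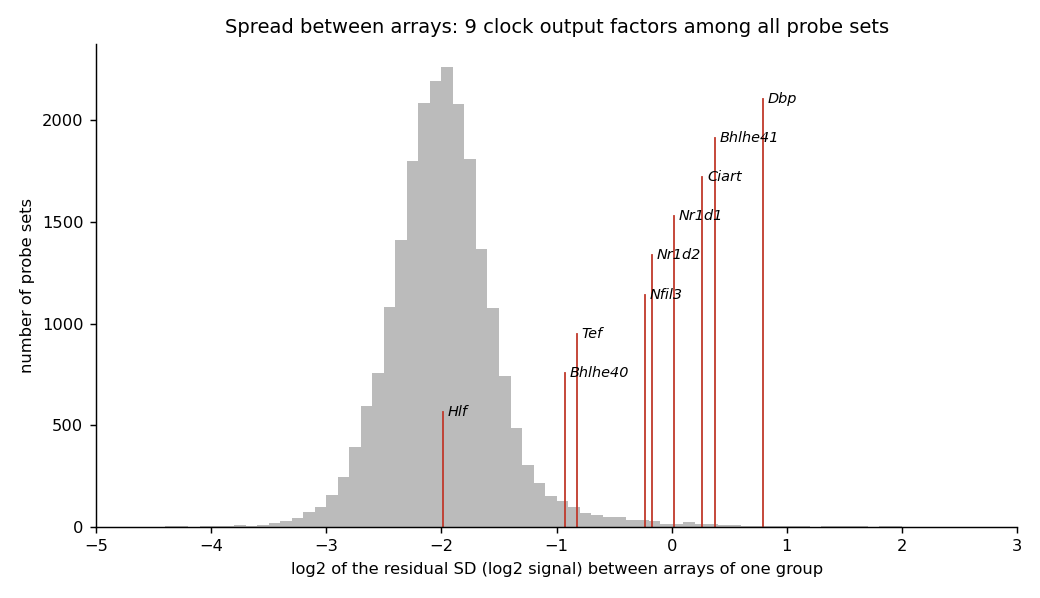
Histogram of the residual SD of 22206 probe sets around their group means (x axis, log2 of the SD of log2 signals; y axis, number of probe sets), with the 9 factors as red lines whose height only separates the names. Hlf sits in the bulk of the genes, and the other 8 factors in the upper tail, Dbp farthest at an SD of 1.73.

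Dbp (chr7:45705100-45710203, GRCm38.p6) had signals in NN offspring of 9.47, 11.33 and 12.17 (lowest, median and highest). They were 7.08, 9.73 and 11.96 in LL offspring, 8.42, 11.82 and 12.22 in NL offspring, and 6.87, 10.94 and 11.58 in LN offspring. The 4 groups overlapped, and the LL and LN groups reached lower than the other two. Arrays with a Dbp signal under 8 numbered 2 of 9 in LL and 3 of 7 in LN offspring, with 0 of 7 in NN and 0 of 6 in NL offspring, and no array lay between 7.34 and 8.42. The arrays under 8 were LL replicates 4 and 5, both female, and LN replicates 4, 6 and 7, all male. The limit of 8 lies in that gap of these same data. Under a limit of 10 the arrays numbered 5 of 9 in LL, 3 of 7 in LN, 1 of 7 in NN and 1 of 6 in NL offspring.

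Tef (chr15:81802673-81826863), a second PAR bZip activator, had a similar layout over a narrower range. Its lowest, median and highest signals were 5.84, 6.29 and 7.13 in NN, 5.19, 6.20 and 7.04 in LL, 5.73, 6.79 and 7.01 in NL and 5.37, 6.23 and 6.86 in LN offspring. The 5 arrays with the least Dbp had 5.19 to 5.79 and the other 24 had 5.55 to 7.13, so that they overlapped. Hlf (chr11:90336535-90390917), the third, hardly set these arrays apart, with 7.81 to 8.24 against 7.59 to 8.59. Its group means were 8.30 ± 0.34 (SD, n = 7) in NN, 8.07 ± 0.19 (n = 9) in LL, 8.14 ± 0.29 (n = 6) in NL and 8.09 ± 0.19 (n = 7) in LN offspring.

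Nfil3 (chr13:52967209-52982878), the repressor at the D-box, was high where Dbp was low. Its signals were 5.68, 6.47 and 6.70 (lowest, median and highest) in NN, 5.28, 7.08 and 8.20 in LL, 5.64, 5.93 and 7.73 in NL and 5.58, 6.07 and 7.79 in LN offspring. No NN array exceeded 6.70, and each other group reached 7.73 or more, though the groups overlapped. In NL offspring this rested on replicate 4, with the next highest at 7.01, and the NL median lay below that of NN. The 5 arrays with the least Dbp had Nfil3 signals of 7.51 to 8.20. The other 24 had 5.28 to 7.73.

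Nr1d1 (chr11:98767932-98775377), which encodes REV-ERB alpha, separated 2 sets of arrays. On 4 arrays, LL replicates 4 and 5 and LN replicates 6 and 7, it was at 6.96 to 7.84, and on the other 25 at 9.22 or more. Its lowest, median and highest signals were 9.55, 10.31 and 10.66 in NN, 6.96, 10.14 and 10.47 in LL, 9.22, 10.17 and 10.51 in NL and 7.23, 9.90 and 10.75 in LN offspring. LN replicate 4 had low Dbp (7.20) and low Nr1d2 (6.94), but its Nr1d1 signal of 9.28 lay in the upper set. Nr1d2 (chr14:18204056-18239106), which encodes REV-ERB beta, had 6.49 to 6.94 on the 5 arrays with the least Dbp and 7.47 to 9.12 on the other 24, without overlap. Its group means were 8.62 ± 0.61 (SD, n = 7) in NN, 8.15 ± 0.95 (n = 9) in LL, 8.53 ± 0.58 (n = 6) in NL and 7.92 ± 1.20 (n = 7) in LN offspring.

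Ciart (chr3:95878500-95882257), a repressor of CLOCK and BMAL1, did not separate the same 5 arrays, which had 3.96 to 4.74 against 3.85 to 7.55 on the others. Background signal may hide differences among the lowest of these values. Its lowest, median and highest signals were 4.46, 6.12 and 7.50 in NN, 3.85, 4.76 and 6.93 in LL, 4.46, 6.98 and 7.55 in NL and 3.96, 4.47 and 7.23 in LN offspring. The groups overlapped over most of their range, and NL females were high and close together at 6.79, 7.16 and 7.51. Low Ciart was also seen where Dbp was well above that of these 5: LN replicate 3 had a Ciart signal of 4.28 with Dbp at 10.94, and NN replicate 6 had 4.46 with Dbp at 11.04. All 14 arrays with a Ciart signal above 6 had a Dbp signal of 11.29 or more.

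Bhlhe40 (DEC1, chr6:108660629-108666925) had a smaller spread than Bhlhe41 (DEC2, chr6:145858243-145865420). Bhlhe40 was at 10.37 ± 0.35 (SD, n = 7) in NN, 10.11 ± 0.60 (n = 9) in LL, 10.53 ± 0.45 (n = 6) in NL and 10.13 ± 0.61 (n = 7) in LN offspring. Bhlhe41 signals were 4.35, 6.44 and 7.83 (lowest, median and highest) in NN, 2.78, 4.85 and 6.83 in LL, 3.54, 5.53 and 7.16 in NL and 3.85, 4.72 and 7.32 in LN offspring. The lowest Bhlhe41 signals, 2.78 and 3.11, were those of LL replicates 4 and 5, and the highest that of NN replicate 4, a male.

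**Figure D2:**
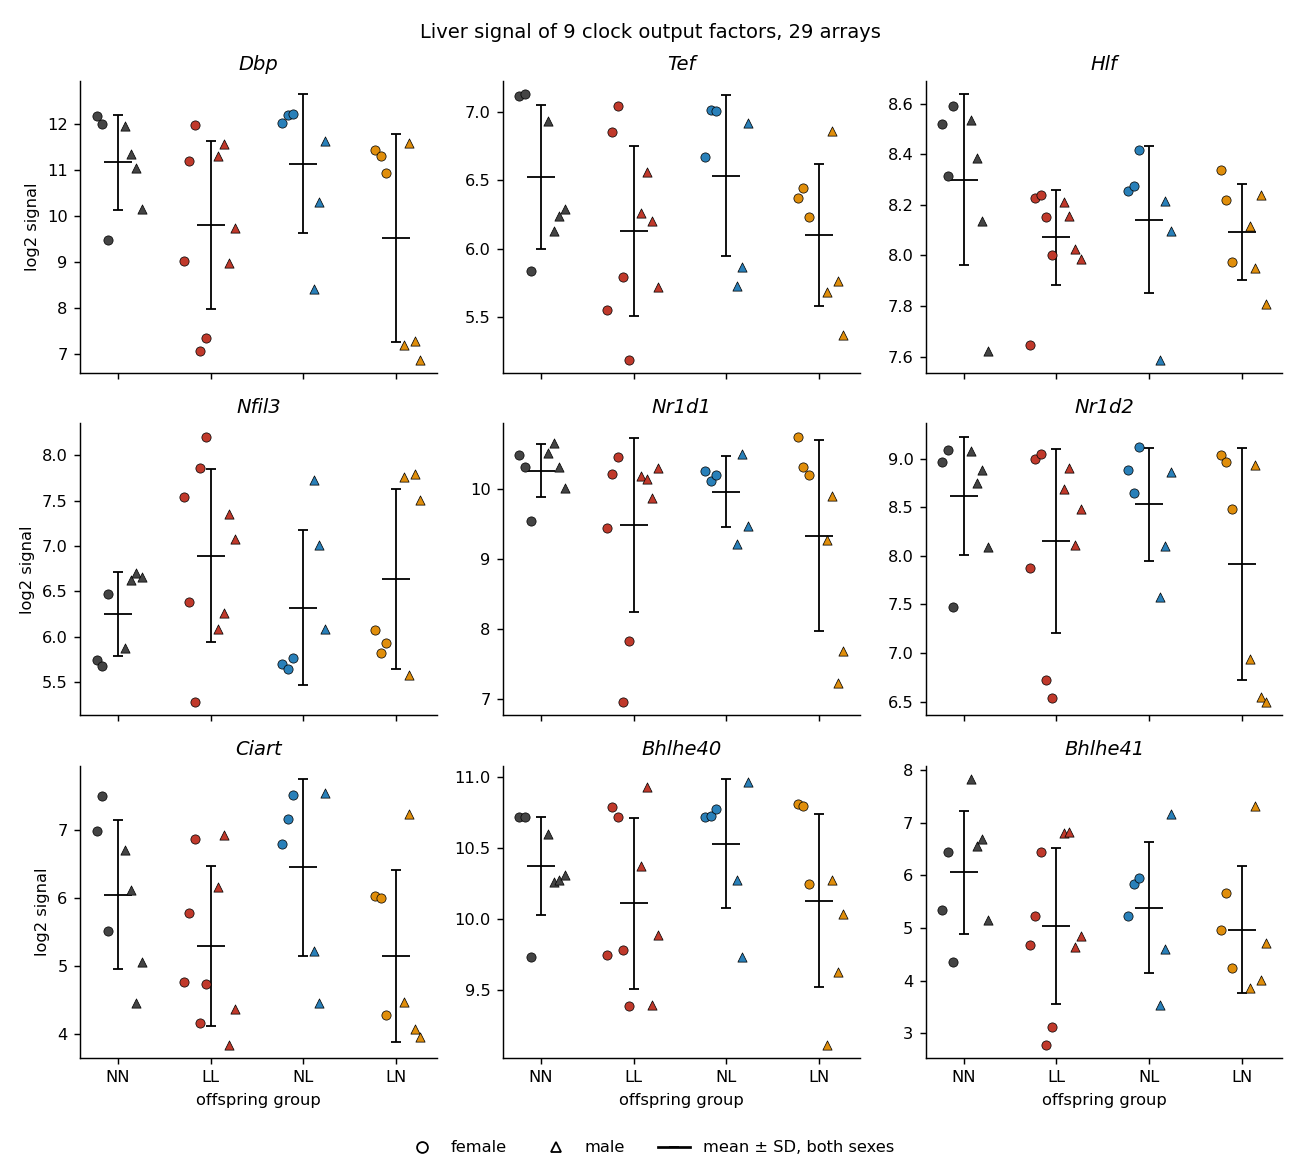
Log2 signal (y axis) of each factor on 29 arrays by offspring group (x axis), with circles for females, triangles for males and a bar with whiskers for the mean ± SD of both sexes. The groups overlap for every factor, and 2 LL females and 3 LN males form the low Dbp and Nr1d2 points.

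The factors varied together. Over 29 arrays, 32 of 36 pairs of factors were correlated at an adjusted p under 0.05 (two-sided permutation tests of Pearson's r with 100000 resamples, Benjamini-Hochberg over 36 pairs), 24 positively and 8 negatively. The 8 negative pairs were those of Nfil3 with each other factor. Spearman's rho passed in 34 pairs. Dbp and Nr1d2 had r = 0.963 and rho = 0.867, and Dbp and Nfil3 r = -0.932 and rho = -0.909 (adjusted p = 1.89e-05 for both r values, from 1e-05, the smallest p these permutations can give). Without the 2 arrays farthest from the median Dbp signal, r was 0.949 and -0.935. The 4 pairs that did not pass were those of Hlf with Nr1d1, Nr1d2, Bhlhe40 and Bhlhe41, with r = 0.371, 0.300 and 0.328 for the last 3.

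This did not rest on the 5 arrays with the least Dbp. Over the other 24, 30 of 36 pairs passed, with r = 0.892 for Dbp and Nr1d2 and -0.904 for Dbp and Nfil3. Among pairs of Nr1d1, whose 29 values fall apart into 4 low arrays and the rest, r over these 24 arrays was 0.657 with Nr1d2 (adjusted p = 0.00191), 0.611 with Dbp (adjusted p = 0.00315) and 0.136 with Ciart (adjusted p = 0.528). After subtraction of the means of the 8 groups of diet and sex, 27 of 36 pairs passed over 29 arrays, with all 36 signs as before. Within single diet groups 24 of 36 pairs passed in LL, 4 in LN, 1 in NN and 0 in NL offspring by exact permutation tests over 9, 7, 7 and 6 arrays. The r of Dbp with Nr1d2 was 0.961, 0.991, 0.955 and 0.953 in these groups, and the sign was as over all arrays in 36, 35, 35 and 34 pairs. In the smallest groups the number of arrays limits what can pass.

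**Figure D3:**
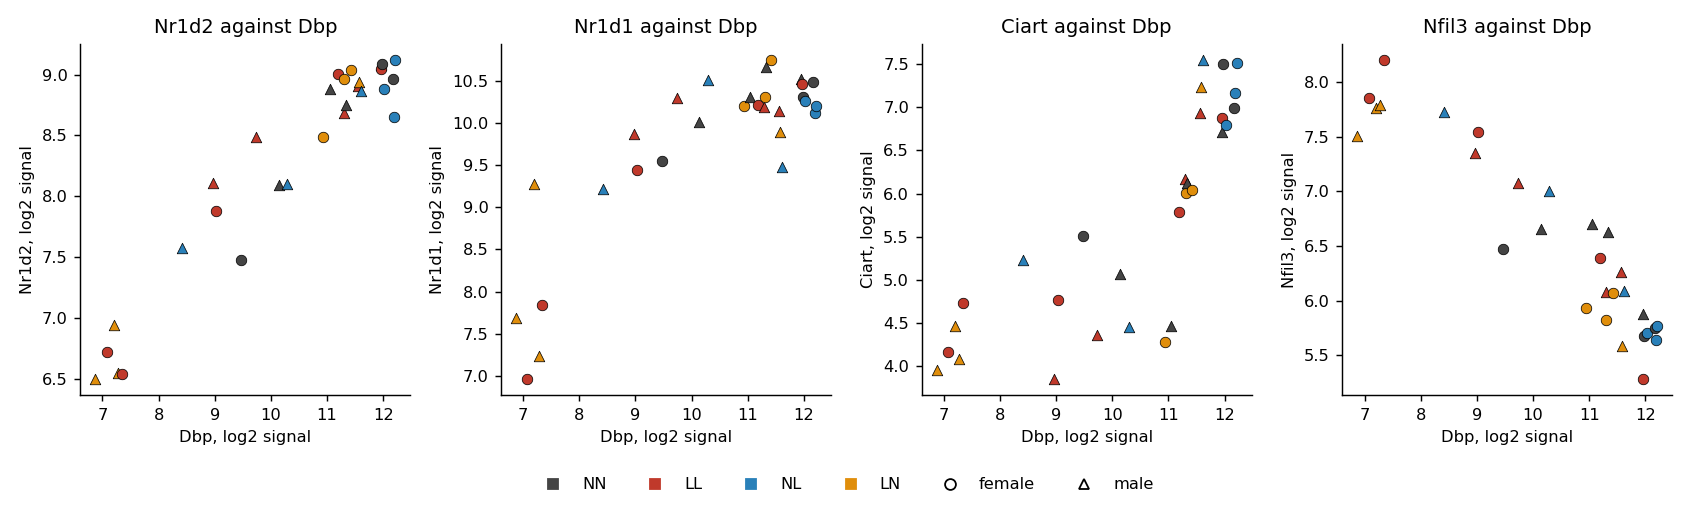
Log2 signals of Nr1d2, Nr1d1, Ciart and Nfil3 (y axes) against Dbp (x axis) on 29 arrays, coloured by group, with circles for females and triangles for males. Nr1d2 climbs and Nfil3 declines along the range of Dbp (r = 0.963 and -0.932), Nr1d1 is low on 4 arrays, and Ciart climbs at high Dbp.

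Most core clock genes varied with the factors. Of 108 pairs of a factor with 1 of 12 core clock genes measured by a single probe set, 70 passed at an adjusted p under 0.05 over 29 arrays, 35 in each direction. Of the 12 genes, 8 passed with 8 or 9 of the factors, and Arntl2, Fbxl21, Csnk1d and Csnk1e passed with 0. Dbp went with Per3 (r = 0.947, rho = 0.963) and against Arntl (r = -0.895, rho = -0.920), with adjusted p = 2.77e-05 for both. These r values were 0.942 and -0.880 without the 2 farthest arrays, 0.919 and -0.875 on the 24 arrays with a Dbp signal of 8 or more, and 0.942 to 0.980 and -0.905 to -0.979 within the diet groups. Nfil3 had the opposite signs, with r = 0.870 to Arntl and -0.891 to Per3 (rho = 0.869 and -0.896). Csnk1d and Csnk1e, the kinases that mark PER proteins, showed r = 0.107 and 0.160 with Dbp (adjusted p = 0.634 and 0.464), Arntl2 r = 0.202 and Fbxl21 r = -0.249 (adjusted p = 0.364 and 0.259). The residual SDs of Csnk1d and Csnk1e were at the 33.4th and 45.9th percentiles. Within single diet groups 52, 15, 6 and 0 of the 108 pairs passed in LL, LN, NN and NL offspring.

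**Figure D4:**
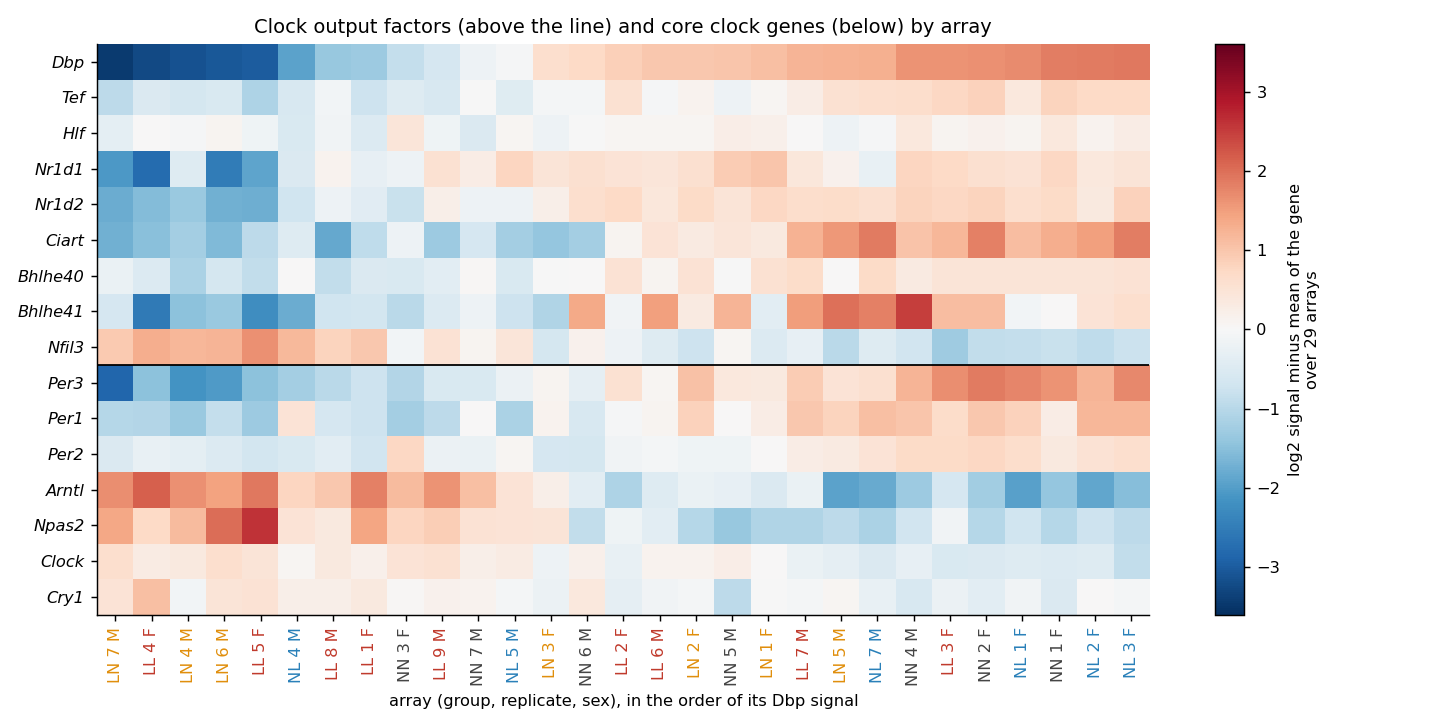
Log2 signal minus the mean of each gene over 29 arrays (colour) for the 9 factors above the line and 7 core clock genes below it (y axis), with arrays (x axis) in the order of Dbp. Nfil3, Arntl, Npas2, Clock and Cry1 run against Dbp, Per3, Per1 and Per2 run with it, and the row of Hlf is the palest of the 9 factors.

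Few genes followed Dbp closely, and those that did included genes outside the core clock. Among 19563 other probe sets with a single symbol, r with Dbp over 29 arrays was above 0.8 for 22 and below -0.8 for 17, and the median size of r was 0.184. The most alike were Per3 (0.947), Clmn (0.878), Fgfrl1 (0.875), Ppargc1b (0.868) and Slc38a3 (0.840). The most opposed were Arntl (-0.895), Rfxank (-0.890), Lgalsl (-0.889), Chka (-0.869) and Npas2 (-0.869). For Nfil3 the closest were Rfxank (0.881), Lgalsl (0.880), Chka (0.873), Arntl (0.870) and Dtx4 (0.863). The most opposed to it were Per3 (-0.891), Gys2 (-0.875), which encodes liver glycogen synthase, Clmn (-0.852), Fgfrl1 (-0.844) and Cabcoco1 (-0.834). Arntl, Rfxank, Lgalsl and Chka were thus on the list of Nfil3 and, with the opposite sign, on that of Dbp.

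The 5 arrays with the least Dbp had Npas2 at 5.43 to 7.32 against 3.36 to 6.14 on the others, with the 2 highest signals, 6.73 and 7.32, among them. Arntl was at 7.98 to 8.69 against 4.58 to 8.35. Both genes thus overlapped. Cell type markers overlapped between these 5 arrays and the other 24. Hepatocyte markers averaged 13.18 to 13.28 against 13.17 to 13.27. Cholangiocyte markers averaged 5.29 to 5.81 against 4.98 to 6.11, Kupffer cell and macrophage markers 6.96 to 7.18 against 6.38 to 7.63, and endothelial markers 7.23 to 7.67 against 7.25 to 8.05. Stellate cell and fibroblast markers averaged 6.75 to 7.13 against 6.51 to 7.99, lymphocyte markers 4.31 to 4.75 against 3.96 to 4.59, and exocrine pancreas markers 5.06 to 5.26 against 4.92 to 8.42.

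The design asks whether paternal diet, through the sperm or the seminal plasma, altered these levels in the offspring. Set against NN, no factor passed an adjusted p under 0.05 in LL (0% of all probe sets passed), NL (0.054%) or LN offspring (0.0405%), and none passed the F test over the 4 groups (0.0045%). A looser threshold, more than 1.5-fold at an unadjusted p under 0.05, was then used, and 0 of 9 factors passed it in LL (0.0991% of all probe sets), NL (0.459%) and LN offspring (0.41%). For LN offspring that count was 4 without NN replicate 3, 3 without LN replicate 5 and 2 without LL replicate 4 or LN replicate 1, 2 or 3, 1 without NN replicate 7 or NL replicate 4, 2 with array quality weights and 1 under 5 other processing alternatives. For LL offspring it was 2 without LL replicate 3 and 1 without NN replicate 3 or LL replicate 6 or 7. The shares of all probe sets above are those of the main fit, and none is given for these altered fits. The 3 comparisons share the NN arrays, so that their values are set side by side and not counted as separate evidence.

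In LL offspring 8 of the 9 log2 differences from NN were below 0, with a median of -0.47 against 0.01 over all probe sets. Dbp differed by -1.36 (SE 0.78, adjusted p = 0.660), Bhlhe41 by -1.01 (SE 0.59, adjusted p = 0.665), Nr1d1 by -0.77 (SE 0.46, adjusted p = 0.672) and Ciart by -0.76 (SE 0.55, adjusted p = 0.730). Nfil3 was the factor above 0, at 0.64 (SE 0.39, adjusted p = 0.676). In LN offspring, set against the same NN arrays, 8 of 9 differences were below 0, with a median of -0.70 against 0.02. Dbp differed by -1.64 (SE 0.83, adjusted p = 0.447), Bhlhe41 by -1.09 (SE 0.62, adjusted p = 0.521), Nr1d1 by -0.93 (SE 0.49, adjusted p = 0.467) and Nfil3 by 0.39 (SE 0.41, adjusted p = 0.764). The intervals of these differences all included 0. Since the factors vary together, with Nfil3 against the others, the 8 differences below 0 are not separate results. In NL offspring the differences ran from -0.67 for Bhlhe41 (SE 0.65, adjusted p = 0.677) to 0.40 for Ciart (SE 0.60, adjusted p = 0.804), and that of Dbp was -0.03 (95% interval -1.79 to 1.73).

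The design was also read as 2 factors, the diet of the sperm donor and the diet of the seminal plasma donor. For a low against a normal protein diet of the sperm donor, Dbp differed by -1.49 (SE 0.58, 95% interval -2.68 to -0.30, 2.80-fold), Ciart by -1.03 (SE 0.41, -1.86 to -0.20, 2.04-fold) and Nr1d1 by -0.70 (SE 0.34, -1.40 to -0.0015, 1.63-fold). These 3 of 9 factors passed the looser threshold, all lower after sperm from males on the low protein diet, against 0.0811% of all probe sets in either direction and 0.0405% lower. None passed after adjustment over all probe sets (0%), with adjusted p = 0.750 for Dbp and Ciart and 0.766 for Nr1d1. Since the factors vary together, the 3 are not separate results.

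Tef differed by -0.41 between the diets of the sperm donor (SE 0.19, adjusted p = 0.764), Bhlhe41 by -0.72, Nr1d2 by -0.54, Bhlhe40 by -0.33, Hlf by -0.14 and Nfil3 by 0.48 (adjusted p = 0.764 to 0.844 for these 6). The median of the 9 differences was -0.54 against 0.01 over all probe sets. The count of 3 was 1 when the weak array NL replicate 6 was kept and 5 with array quality weights. It was 5 or 6 without LN replicate 5 or NL replicate 4. Shares of all probe sets are not given for altered fits. With the Arntl signal of each array as a covariate, an alternative chosen after the data were seen, the count was 0 and the difference of Dbp was -0.04. Arntl ran against Dbp (r = -0.895) and itself differed by 1.16 between these diets. Such a fit takes out much of the Dbp difference whatever its source, so that nothing is concluded from it.

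The diet of the seminal plasma donor gave differences from -0.30 for Bhlhe41 to 0.27 for Ciart, with none of the 9 factors passing at either threshold (0% of all probe sets at both). For Dbp the 95% interval was -1.06 to 1.31. The interaction of the 2 diets passed for none of the 9 (0.113% of all probe sets at an adjusted p under 0.05 and 2.34% at the looser threshold). Set directly against each other, NL exceeded LN offspring by 1.61 for Dbp (SE 0.86, adjusted p = 0.758) and by 1.30 for Ciart (SE 0.60, adjusted p = 0.696). Ciart alone passed the looser threshold there (0.212% of all probe sets), a call lost when NL replicate 1, 2, 3 or 7 or LN replicate 4, 6 or 7 was left out.

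**Figure D5:**
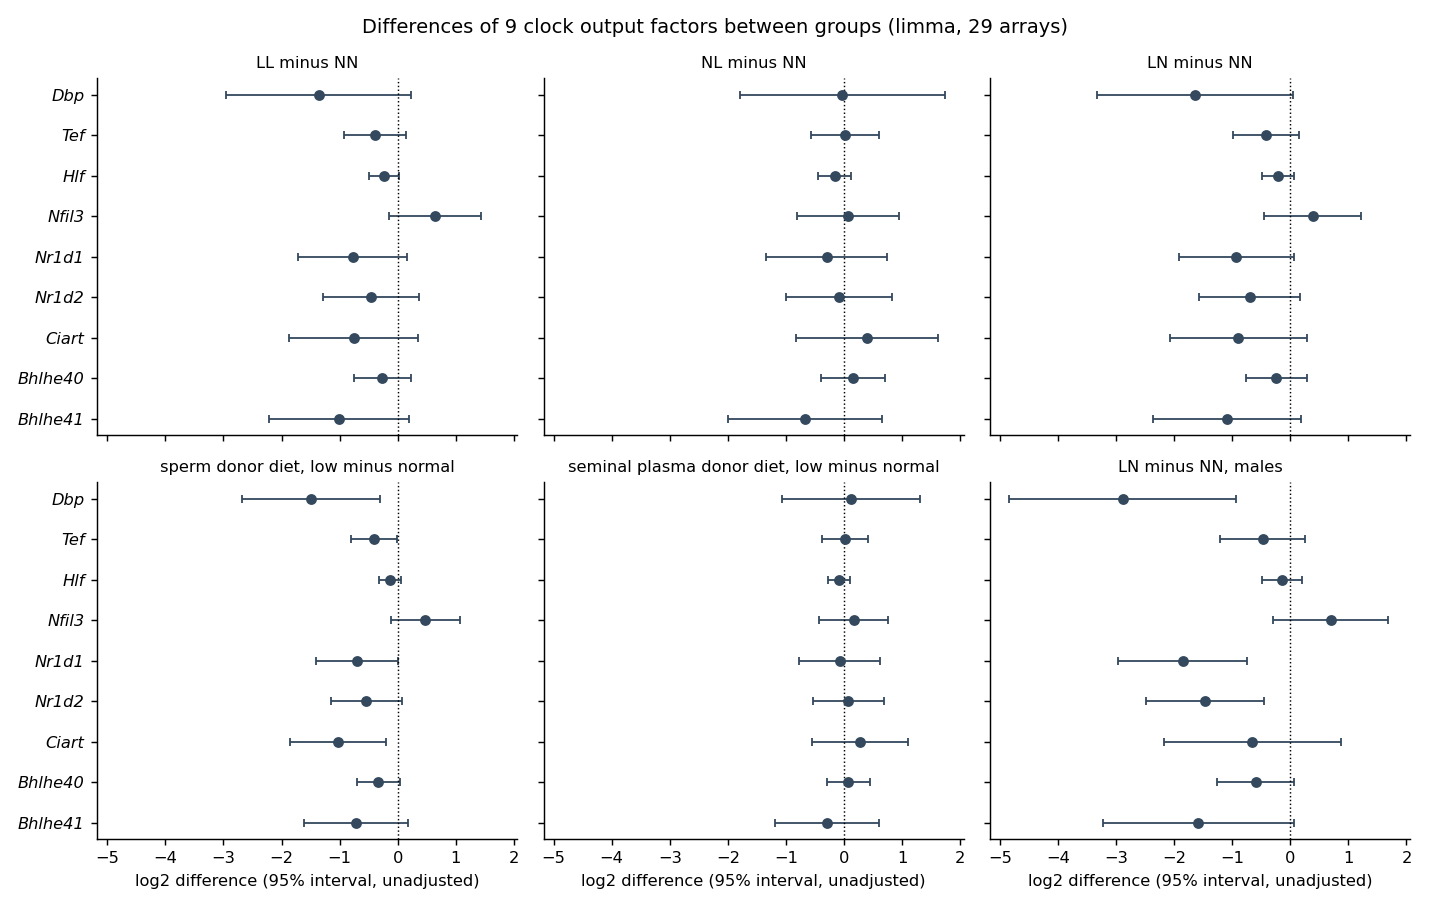
Log2 differences (x axis) of the 9 factors (y axis) in 6 comparisons, with 95% intervals of limma that are not adjusted for the number of genes. The interval of Dbp excludes 0 for the diet of the sperm donor (-2.68 to -0.30) and in LN against NN males (-4.84 to -0.93), and those of the seminal plasma diet all include 0.

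Core clock genes and genes downstream of the factors were counted for the diet of the sperm donor, and none of them passed an adjusted p under 0.05, nor did any cell type marker at an unadjusted p under 0.05. Of 17 probe sets of the core clock, 7 were higher and 3 lower at an unadjusted p under 0.05 (6.52% of all probe sets in either direction), with a median difference of 0.03 against 0.01 over all probe sets. Arntl differed by 1.16 (SE 0.42, adjusted p = 0.726), Npas2 by 0.85 (SE 0.35, adjusted p = 0.750), Per2 by -0.46 (SE 0.16, adjusted p = 0.685) and Per3 by -1.03 (SE 0.42, adjusted p = 0.750). Of 7 measured genes known as REV-ERB targets, a list that shares Arntl, Npas2, Clock and Cry1 with the core clock and Nfil3 with the 9 factors, 5 were higher and 0 lower at that threshold, with a median of 0.48. Insig2, which holds back lipid synthesis, was among them at 0.57 (SE 0.19, adjusted p = 0.682).

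Of 6 measured genes known as targets of the PAR bZip factors, 0 passed an unadjusted p under 0.05 for the diet of the sperm donor. Of their differences 5 were below 0 and 1 above, with a median of -0.15. Alas1, the rate-limiting enzyme of haem synthesis, differed by -0.47 (SE 0.25, adjusted p = 0.771) and Cyp7a1, the rate-limiting enzyme of bile acid synthesis, by -0.35 (SE 0.18, adjusted p = 0.771). Of 8 other clock-controlled genes, all 8 differences were below 0 and 2 passed unadjusted, Lpin1 at -0.68 (SE 0.28) and Usp2 at -0.83 (SE 0.40). Some of these genes vary with the factors. Gys2 had r = -0.875 with Nfil3, and Usp2 was at 6.24 on the array with the least Dbp and at 9.13 on that with the most. The 8 are thus not counted as separate results, and the share of all probe sets below 0 is not given. Of 8 genes of fasting and glucocorticoid signalling, 4 differences were above and 4 below 0, and G6pc passed unadjusted at 0.54 (SE 0.23, adjusted p = 0.750).

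The low Dbp arrays of LN offspring were all male, and in LL offspring all female. In LN males Dbp was at 6.87, 7.20, 7.28 and 11.58, against 10.14, 11.04, 11.33 and 11.96 in NN males and 10.94, 11.30 and 11.42 in LN females. LN males differed from NN males by -2.89 for Dbp (SE 0.96, 7.39-fold, adjusted p = 0.238), by -1.85 for Nr1d1 (SE 0.54, 3.61-fold, adjusted p = 0.184) and by -1.47 for Nr1d2 (SE 0.50, 2.77-fold, adjusted p = 0.245). These 3 of 9 passed the looser threshold, all lower in LN males, against 1.93% of all probe sets in either direction and 1.18% lower, and 0 of 9 passed after adjustment (0.036%). The single LN male with high Dbp, replicate 5, also had high Ciart (7.23) and Bhlhe41 (7.32). Without it 7 of 9 factors passed the looser threshold and none the adjusted one. Since this array stood out by the signals of these same factors, the count without it is no separate support for a difference. The share of all probe sets in that fit is not given.

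In LN females the difference of Dbp from NN females was 0.01 (SE 1.10). The difference between the sexes in LN against NN was -2.90 for Dbp (SE 1.46, adjusted p = 0.707), -2.16 for Nr1d1 (SE 0.83, adjusted p = 0.604) and -1.79 for Nr1d2 (SE 0.76, adjusted p = 0.644). The latter 2 of 9 passed the looser threshold (4.46% of all probe sets) and 0 of 9 after adjustment (0%), so that a difference between males and females was not shown.

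In LL females the Dbp signals were 7.08, 7.34, 9.03, 11.19 and 11.96, against 9.47, 11.98 and 12.17 in NN females (log2 difference -1.89, SE 0.99, adjusted p = 0.480). The lowest of these NN values lies within the LL range. The LL value of 9.03 is that of the array labelled LL replicate 1, whose Y-linked signal lay between those of the sexes and whose Nfil3 signal was 7.54. Nfil3 was at 5.28, 6.39, 7.54, 7.86 and 8.20 in LL females and at 5.68, 5.75 and 6.47 in NN females (1.09, SE 0.50, adjusted p = 0.414). Nfil3 was the 1 of 9 factors past the looser threshold there (1.73% of all probe sets). It lost that call without NN replicate 1 or 2 or LL replicate 4 or 5. Without NN replicate 3 the count of factors was 6, without LL replicate 3 it was 5 and without LL replicate 2 it was 4. The share of all probe sets in these altered fits is not given. LL males, in contrast, had differences of -0.78 to 0.23 from NN males, none past that threshold (0.572% of all probe sets). No factor passed it either in NL females (2.11%), NL males (2.06%) or LN females (1.79%) against NN offspring of the same sex, nor in the difference between the sexes for LL (3.26%) and NL offspring (3.16%).

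Males and females of all groups were also compared. Across the 4 diets, 5.65% of all probe sets passed an adjusted p under 0.05, none of them 1 of the 9 factors. The Nfil3 signal of males was 6.81 ± 0.73 (SD, n = 15; 5.58 to 7.79) and that of females 6.29 ± 0.91 (SD, n = 14; 5.28 to 8.20). The ranges thus overlapped, and the difference over the 4 diets was 0.65 (SE 0.26, adjusted p = 0.158). It was the 1 factor past the looser threshold (1.61% of all probe sets). Without LN replicate 5 its adjusted p was 0.0408 (difference 0.78, SE 0.23). Without the array labelled LL replicate 1, whose Y-linked signal lay between those of the sexes, it was 0.144 (difference 0.68, SE 0.26). Dbp differed by -1.01 between males and females (SE 0.51, adjusted p = 0.312). Of the 6 genes known as PAR bZip targets, 4 were lower in males after adjustment, a list that includes Cyp2a4 and Cyp2b10, known for their higher expression in female mouse liver.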

How the data were processed

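The authors hybridised labelled liver RNA to Clariom S mouse arrays and processed them with Partek Genomics Suite. The deposited values are log2 signals per probe set on a scale shared by the arrays. The sources used here do not give the method of background correction and normalization. Of 29129 probe sets, 6923 controls were left out. The 9 factors, the gene lists and the tests were chosen with earlier results of these data known. Named genes are all 9 factors, up to 4 genes of each list with the smallest p, and the 5 genes most and least correlated with Dbp and with Nfil3. Rora and Rorb had several probe sets each and stayed out of the correlations.

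Groups were compared with limma 3.58.1 in R 4.3.3, with diet as 4 groups or diet and sex as 8 groups. P-values were adjusted by Benjamini-Hochberg over 22206 probe sets, and adjusted p-values in the text come from limma unless a correlation is named. A looser threshold was a difference of more than 1.5-fold at an unadjusted p under 0.05. Fold changes are on the log2 signal scale, on which arrays compress differences of dim and saturated probes. Correlations were tested with 100000 permutations, or exactly within groups (Python 3.11.15, scipy 1.17.1). Figures were drawn with matplotlib 3.10.9. Scripts were tested on simulated data.

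NL replicate 6 was left out for its weak signal. Alternatives kept it, left out each other array in turn, changed the normalization, the filter, the weights, the variance model or the arrays fitted, or added sex, Arntl or the replicate number. Replicate numbers do not pair the arrays: deviations from the 8 group means correlated at -0.0018 on average between arrays of the same number and 0.0003 between others. Promoter windows came from RefSeq (GRCm38.p6). No pair of arrays held the same values. Groups, sexes and replicate numbers were taken from the sample labels. Per the labels the arrays of each sex number 3 to 5 a group, where the methods give 4 of each, and the numbers in the sample descriptions differ from those in the titles, which were used here and in the replicate block.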

Additional observations from a re-analysis of the deposited data

Results flagged for a closer look

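A single array lay far from the rest of its group in 6 of 72 groups of 4 to 10 arrays tested for the 9 factors (Dixon's 95% critical value, which chance passes in about 1 of 20 groups). Of these, 3 were the same animal, LN replicate 5, set against the other 3 LN males. Its Dbp signal was 11.58 against 6.87 to 7.28, its Ciart signal 7.23 against 3.96 to 4.47, and its Nfil3 signal 5.58 against 7.51 to 7.79. Among NN males, replicate 4 had a Nfil3 signal of 5.88 against 6.63 to 6.70 and a Bhlhe40 signal of 10.6 against 10.26 to 10.31. The array labelled LL replicate 1, whose Y-linked signal lay between those of the sexes, had a Hlf signal of 7.65 against 7.99 to 8.24 in the other LL offspring.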

How the results depend on the processing

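Of 1466 recomputed differences for 38 named results, 1446 kept direction and side of the adjusted threshold, 19 reversed and 1 passed it. Dbp in NL against NN was 0.25 with array quality weights, and -0.31 to 0.51 with single arrays left out, above 0 without NN replicate 1, 2 or 4 or NL replicate 4 or 5. A change in a count, here and in the paragraphs below, may not be particular to the factors, since shares of all probe sets in the altered fits are not given. The same holds for a factor that passed the adjusted threshold in such a fit. The counts that follow are of the 9 factors at the looser threshold of the report. With NL replicate 6 kept, they were 0 for NL against LN, 1 for the sperm donor's diet, 0 for LL females and 2 for NL males against NN. With a plain analysis of variance, they were 0 for NL against LN, 0 for LL females and 1 for the sex difference in LN against NN. Quantile normalization gave 1 for LN against NN, median centring 2 for LL females, and sex as a covariate 1 for LN against NN. Array quality weights gave 2 for LN against NN, 2 for NL against LN, 5 for the sperm donor's diet and 3 for males against females. Fits of the compared groups alone gave 1 for LN against NN, 1 for LN females, 1 for NL males, 5 for LN males and 4 for the sex difference in LN against NN. A stricter adjusted p under 0.01 and the filter on dim probe sets moved no count by over 1.5 times.

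With the replicate number as a block, although it does not pair the arrays (2 of 29 correlated best with an array of their own number, and 6 of 39 same-number pairs over 0.1), the counts were 1 for LN against NN, 0 for NL against LN, 0 for LL females, 1 for NL males, 5 for LN males and 4 for males against females. There 1 factor passed the adjusted threshold, Nr1d1 at 2.77 (SE 0.43, adjusted p = 0.00169), and Nfil3 reversed to -1.08. The share of all probe sets in this fit is not given. Among numbers from 4 up, LL replicates 4 and 5 are the only females, so that the blocked sex difference rests largely on 2 arrays with little Dbp.

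With Arntl as a covariate, chosen after seeing the data, the counts were 2 for NL and 1 for LN against NN, 0 for NL against LN, 0 for the sperm donor's diet, 3 for the interaction, 0 for LL females and 2 for NL males. For males against females 1 factor passed the adjusted threshold, Bhlhe41 at 1.04 (SE 0.21, adjusted p = 0.00238). Against NN, the differences in LL became 0.029 for Tef, 0.15 for Nr1d2, 0.068 for Ciart and 0.075 for Bhlhe40, that of Ciart in NL -0.13 and that of Nfil3 in LN -0.014. NL against LN became -0.026 for Dbp. For the sperm donor's diet they became 0.072 for Tef, -0.22 for Nfil3, 0.17 for Nr1d2, 0.055 for Bhlhe40 and 0.25 for Bhlhe41. Arntl ran against Dbp (r = -0.895), so that this fit takes out a signal that the factors share. The share of all probe sets in this fit is not given. The cause was not tested.

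With single arrays left out, these counts ran from 0 to 2 for LL and 0 to 4 for LN against NN, 0 to 2 for NL against LN, 2 to 6 for the sperm donor's diet, 0 to 6 for LL females, 0 to 1 for NL males and 3 to 7 for LN males. They ran from 0 to 1, 0 to 1 and 1 to 3 for the sex differences in LL, NL and LN, and from 0 to 3 for males against females, where 0 to 1 passed the adjusted threshold. Pairs of factors passing within groups were 1 in NN, 0 in NL and 4 in LN offspring, and pairs with core clock genes 6, 0 and 15. The lowest adjusted p of any factor was 0.0408 with an array left out, for Nfil3 in males against females. The number of arrays limits the precision.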
